A study of Mus musculus with 12 samples.

Results

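The genes described here encode the junctions that hold and seal epithelial cells: claudins, the occludin family, junctional adhesion molecules, tight junction plaque and polarity proteins, classical cadherins with their catenins, and the plaque proteins and cadherins of the desmosome. They were chosen by name, 34 in all, and 33 of them were found among the 28548 lines of the deposited table; Cldn9 was not analysed here. All 33 passed the filter on low counts and were tested among 21203 genes.

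RNA from corneas of mice with the genotype WT was sequenced in 4 groups. Mice of the first group had dry eye disease (DED) and were given exosomes, small membrane vesicles released by cells, as an eye drop (2 libraries used). Those of the second were DED mice given exosomes by the intravenous route, abbreviated i.v. in the labels (3 libraries), the third was the DED model without exosomes (3 libraries), and the fourth was the control, without treatment (3 libraries). The labels and protocols at hand do not state how the dry eye was brought about, the source and dose of the exosomes or the age and sex of the mice. The name of the deposited table carries a time of 24 h, and nothing at hand says what it was counted from. No labelled group received the eye drop or the injection alone, so the exosomes and their route, vehicle or handling cannot be told apart. They also do not say whether the libraries of a group came from separate animals, so p-values measure only the spread between these libraries, which may be technical. A further eye drop column held, line by line, the average of these 2 and was left out.

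Library totals were 12571461 and 13687074 counts with the eye drop, 8956553 to 9501661 with the intravenous route, 10355125 to 14263045 in the DED model and 10893978 to 12972945 in controls. All 12 corneal epithelium markers, Krt12 among them, had counts in every library. One library stood apart from its group. Among 9174 genes with a mean of at least 100 normalized counts (counts divided by a size factor for each library), 30.7% and 38.3% differed by over 1.5-fold between intravenous 3 and intravenous 1 and 2, against 5.2% between intravenous 1 and 2 and 3.7% to 17.9% within the other groups. The junction genes that passed a test are given with and without it.

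Tight junctions close the space between neighbouring epithelial cells: claudins form the seal and set which ions pass, occludin and its relatives act beside them, and plaque proteins such as ZO-1 tie them to actin. Adherens junctions hold cells together through cadherins linked by catenins to actin, and desmosomes link desmogleins and desmocollins through plakoglobin, plakophilins and desmoplakin to keratin filaments. In the cornea the tight junctions of the outermost epithelial cells form the barrier to the tear film, while desmosomes and adherens junctions join all layers of the epithelium.

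The first extracellular loop of a claudin carries the family's signature, a Gly-Leu-Trp stretch followed by a pair of cysteines. Its coding sequence is shown for Cldn8 and Cldn23, the claudins whose levels passed a test below, and for Cldn4 and Cldn3, whose counts could share reads. Sequences are from GENCODE M21 transcripts on the build GRCm38, 5′ to 3′ on the coding strand, and the capitals mark the codons of that stretch and of both cysteines.
Cldn8: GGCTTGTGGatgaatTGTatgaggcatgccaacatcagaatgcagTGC
Cldn23: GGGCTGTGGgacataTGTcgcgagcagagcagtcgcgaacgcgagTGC
Cldn4: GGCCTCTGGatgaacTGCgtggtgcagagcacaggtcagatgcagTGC
Cldn3: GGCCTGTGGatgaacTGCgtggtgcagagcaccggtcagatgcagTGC
Over these 48 bases Cldn3 and Cldn4 were identical at 46 (95.8%), and Cldn8 and Cldn23 at 23 (47.9%). Over the whole transcripts, the longest exact run shared by Cldn3 and Cldn4 was 35 bases, the longest of the 60 pairs of genes within a role (median 13). On GRCm38, Cldn8 lies on the minus strand of chromosome 16 (88560828 to 88563183), Cldn23 on the minus strand of chromosome 8 (35824712 to 35826559), and Cldn4 and Cldn3 on the minus and plus strands of chromosome 5 (134945119 to 134946934 and 134986214 to 134987472).

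A gene is said to rise or fall where its adjusted p was below 0.05 (limma with Benjamini-Hochberg adjustment over the 21203 genes within a comparison). The DED model differed from controls in 1 junction gene: Cldn8 fell, while 1.25% of all genes tested passed in that comparison (0.736% higher and 0.514% lower). With the eye drop no junction gene passed against the DED model (0.193% of all genes, with 0.127% higher and 0.066% lower), and with the intravenous route none passed against the DED model (1.45%, with 0.962% higher and 0.49% lower). Intravenous samples differed from controls in 4 junction genes, with Cldn8, Cdh1 and Dsc3 lower and Cldn23 higher; the background there was 11.3% of all genes (6.66% higher and 4.68% lower), so the share of junction genes (4 of 33) was near it. Against controls no junction gene passed with the eye drop (0.00472%), and none passed between the intravenous route and the eye drop (0%). In the test of any difference between the 4 groups, 1 junction gene passed, Cldn8 (adjusted p = 0.03608), with 4.51% of all genes. The comparisons with the DED model share its libraries, and those with controls share the control libraries, so they are not independent of each other.

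The numbers of junction genes at an unadjusted p below 0.05 were 6 of 33 with the eye drop against the DED model (7.05% of all genes), 6 with the intravenous route against the DED model (15.5%), 6 in the DED model against controls (17.5%), 5 with the eye drop against controls (10.6%), 11 with the intravenous route against controls (28.7%) and 2 between the routes (9.21%). With voom weights, limma's weighting for count data, none passed in the comparisons that had none. The median log2 fold change of the 33 genes was -0.03 with the eye drop against the DED model (all genes -0.03), 0.00 with the intravenous route against the DED model (all genes -0.04) and 0.01 in the DED model against controls (all genes 0.03). A miss of the threshold does not show that levels were equal, so the intervals matter. The 95% interval lay within 2-fold either way for 22 of 33 junction genes with the eye drop against the DED model (66.7%, against 44.1% of all genes), for 24 with the intravenous route against the DED model (72.7%, against 43.8%) and for 28 in the DED model against controls (84.8%, against 43.2%). The 5 genes outside those bounds in the DED model were Cldn8, Cldn23, Jam2, Jam3 and Dsg2.

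**Figure D1:**
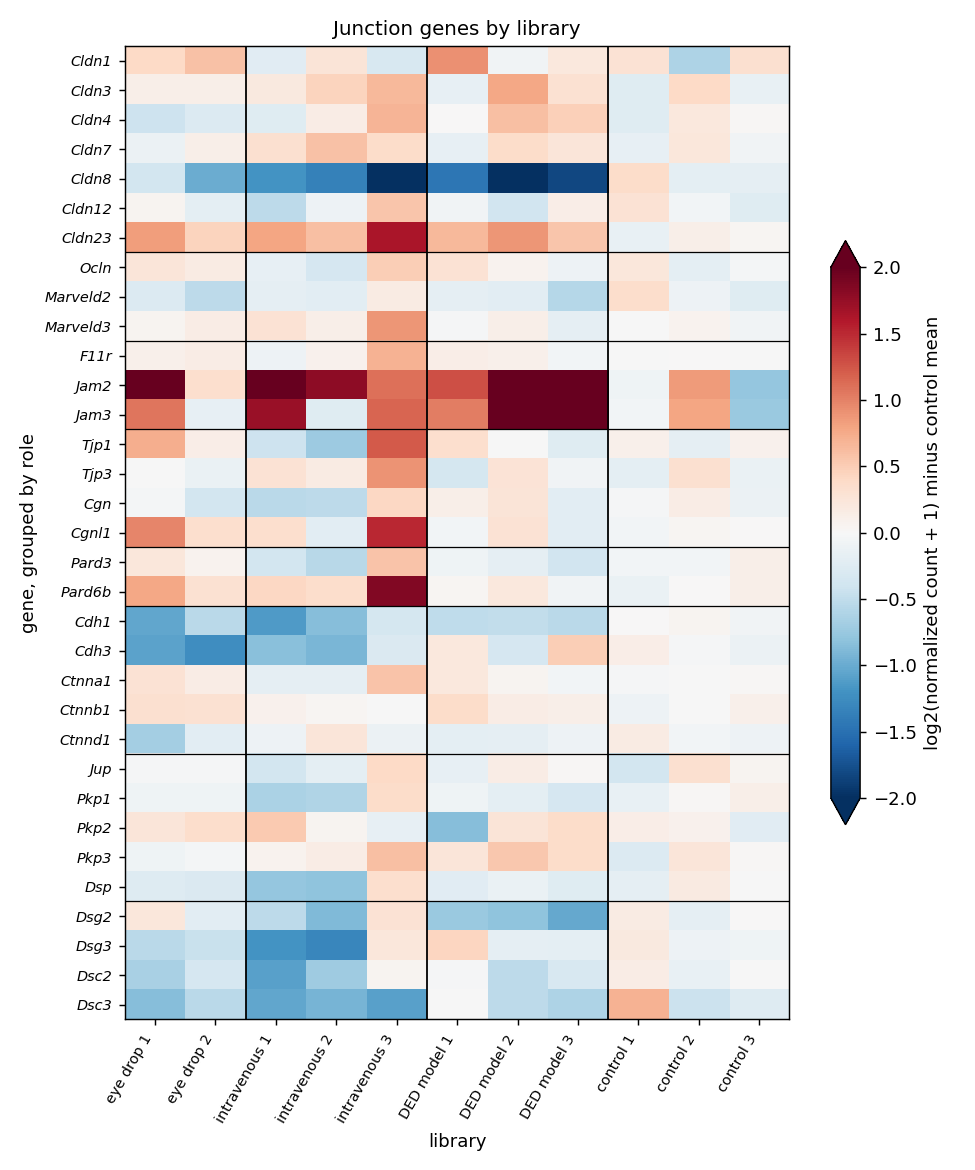
Level of each of the 33 junction genes (rows, grouped by role) in each of the 11 libraries (columns), as log2(normalized count + 1) minus the mean of the controls; colours stop at 2 either way. Cldn8 is low in the DED and intravenous columns, Jam2 and Jam3 are high in the columns DED 2 and DED 3, Jam2 also in eye drop 1, and most rows are higher in the column of intravenous 3 than in those of intravenous 1 and 2.

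**Figure D2:**
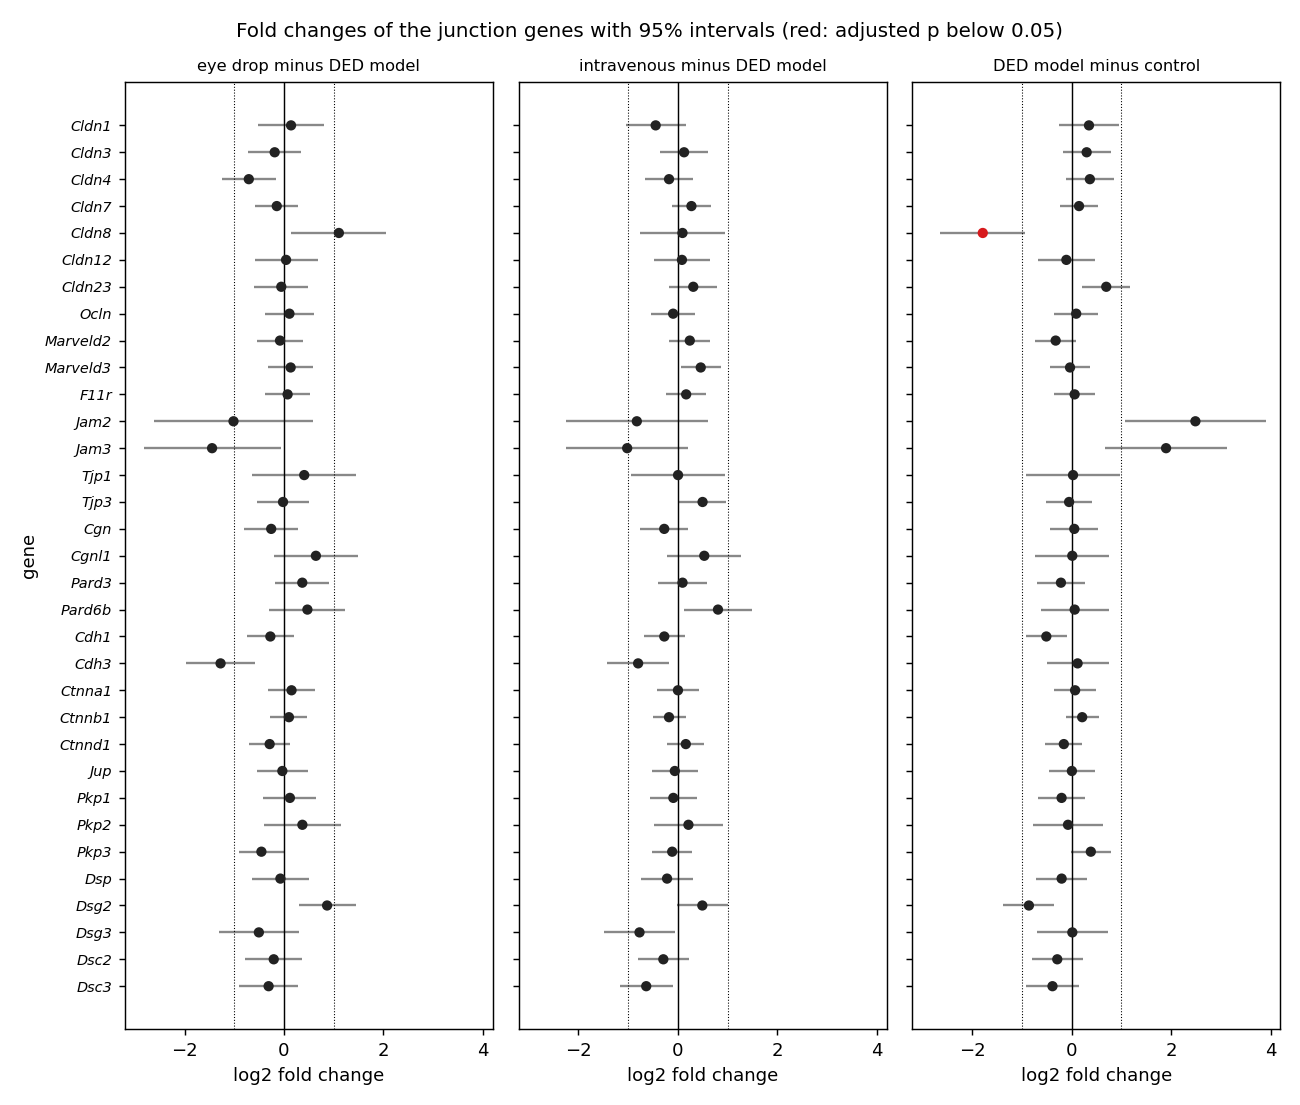
Log2 fold change (x axis) of each junction gene (rows) with its 95% interval in the eye drop group against the DED model, the intravenous group against the DED model and the DED model against controls; dotted lines mark 2-fold either way. Cldn8 in the DED model against controls is the only gene drawn in red (adjusted p below 0.05).

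Among the 7 claudins measured, Cldn8, a claudin studied mostly in kidney and colon, where it limits the passage of ions between cells, was the gene that fell in the DED model. It had 42.5 and 27.4 normalized counts with the eye drop, 23.7, 21.1 and 8.71 with the intravenous route, 19.8, 12.2 and 14.9 in the DED model and 72.0, 48.3 and 48.7 in controls. Every DED and intravenous library was below every control library, and both eye drop libraries lay between the DED and the control libraries. The fold change was -1.79 (SE 0.40) on the log2 scale in the DED model against controls, 3.45-fold lower (limma, adjusted p = 0.03823), and -1.69 (SE 0.40) with the intravenous route against controls (limma, adjusted p = 0.01602). With the eye drop against the DED model it was 1.10 (SE 0.45) with a 95% interval of 0.15 to 2.06, which did not pass (limma, adjusted p = 0.6661). In whole tissue, fewer cells of a type and less RNA per cell cannot be told apart. The summed corneal epithelium markers ranged from 935893 to 949973 normalized counts with the eye drop, 910799 to 1090291 with the intravenous route, 840159 to 1079200 in the DED model and 704078 to 1019120 in controls.

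The Cldn8 call in the DED model was lost without control 1, 2 or 3, DED 2 or 3, or eye drop 1 or 2; across the 11 leave-one-out fits the adjusted p ran from 0.005822 to 0.2343 and the log2 fold change from -1.96 to -1.60. Against controls the intravenous call was lost without control 1, and the log2 fold change was -1.27 (SE 0.37) without intravenous 3.

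Cldn23, a less studied claudin of barrier epithelia, had more counts in every library of the other groups than in any control. It had 3161 and 2399 normalized counts with the eye drop, 3044, 2670.0 and 5483 with the intravenous route, 2769, 3243 and 2601 in the DED model and 1595, 1905 and 1805 in controls. It was highest in intravenous 3. It rose with the intravenous route by 1.01 (SE 0.23) on the log2 scale against controls (2.01-fold; limma, adjusted p = 0.01343), a call lost without control 1. Without intravenous 3 the rise was smaller, at 0.70 (SE 0.16), and passed (limma, adjusted p = 0.004983). In the DED model the log2 fold change against controls was 0.70 (SE 0.23), which did not pass (limma, adjusted p = 0.144). The eye drop against controls gave 0.64 (SE 0.26; limma, adjusted p = 0.3701).

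Cldn4 had the highest level per kb of exon among the claudins, at 3096 normalized counts per kb in controls, and is a sealing claudin of many epithelia. Its normalized counts were 4203 and 4620 with the eye drop, 4696, 6153 and 8944 with the intravenous route, 5629, 8501 and 7781 in the DED model and 4719.9, 6461 and 5686 in controls. Both eye drop libraries were below all DED and control libraries. The eye drop differed from the DED model by -0.71 (SE 0.26) on the log2 scale, with an interval of -1.25 to -0.17, and did not pass (limma, adjusted p = 0.5645). Cldn7, which in epithelia also sits along the lateral membrane, followed at 2625 per kb in controls, then Cldn23 at 957 and Cldn3, a close relative of Cldn4, at 586. Cldn1, the claudin whose loss opens the barrier of mouse epidermis, was at 49.5, Cldn12 at 28.7 and Cldn8 at 23.9 per kb.

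As a share of the summed claudin level per kb, Cldn4 took 32.3% and 34.3% with the eye drop, 31.5% to 40.3% with the intravenous route, 41.0% to 44.7% in the DED model and 40.6% to 43.4% in controls. The share of Cldn23 was 20.7% ± 4.50 with the eye drop, 19.8% ± 4.62 with the intravenous route, 16.9% ± 2.65 in the DED model and 13.1% ± 0.776 in controls (SD, n = 2 with the eye drop and 3 in each other group). Cldn8 took at most 0.478% in any library. These shares are a description, and no test was made of them. Cldn1, Cldn3, Cldn7 and Cldn12 passed in no comparison.

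Ocln encodes occludin, a 4-pass membrane protein of the tight junction strand. It had 862 and 814 normalized counts with the eye drop, 648, 578 and 1024 with the intravenous route, 894, 767 and 681 in the DED model and 854, 634 and 712 in controls. The 4 groups overlapped, and its interval in the DED model against controls was -0.34 to 0.53 on the log2 scale. Its relatives are Marveld2, which encodes tricellulin, a protein of the corners where cells of a sheet meet, and Marveld3. Neither passed, and their means in controls were 387 ± 86.1 and 413 ± 21.3 normalized counts (SD, n = 3). Marveld3 did not overlap between the intravenous and DED libraries, with a log2 fold change of 0.46 (SE 0.19; limma, adjusted p = 0.2529). Without intravenous 3 that fold change was 0.24 (SE 0.15).

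F11r encodes JAM-A, the junctional adhesion molecule of epithelia, and was the most abundant of the 3 measured. Its normalized counts were 3923 and 4051 with the eye drop, 3380, 3859 and 5920 with the intravenous route, 3967, 3907 and 3515 in the DED model and 3609.7, 3666 and 3637 in controls. Apart from intravenous 3 the libraries lay between 3380 and 4051, and no comparison passed. Its interval was -0.38 to 0.53 with the eye drop against the DED model, -0.24 to 0.57 with the intravenous route against the DED model and -0.35 to 0.47 in the DED model against controls.

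Jam2 and Jam3, which are known from vessel walls among other tissues, behaved otherwise; they, Dsg2, Cdh3, the plakophilins and Dsp below are described in detail after their values were seen. Jam2 had 67.8 and 13.3 normalized counts with the eye drop, 47.4, 38.0 and 23.2 with the intravenous route, 26.6, 66.5 and 134.9 in the DED model and 9.65, 19.3 and 5.62 in controls. Jam3 had 19.0 and 7.46 with the eye drop, 30.3, 7.03 and 20.3 with the intravenous route, 18.3, 47.7 and 46.4 in the DED model and 8.17, 15.5 and 4.68 in controls. Every DED library was above every control library for both genes. Jam2 was highest in DED 3, with eye drop 1 and DED 2 next at nearly the same level, and Jam3 was highest in DED 2 and DED 3. The log2 fold changes of the DED model against controls were 2.49 (SE 0.66) for Jam2 and 1.90 (SE 0.58) for Jam3, and neither passed (limma, adjusted p = 0.08614 and 0.116).

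Most markers of several other corneal layers and neighbouring tissues also had a higher mean in the DED model than in controls. Col8a2, a collagen of the corneal endothelium's basement membrane, had 1495 and 221 normalized counts with the eye drop, 943, 899.8 and 742 with the intravenous route, 187, 1792 and 1758 in the DED model and 43.1, 251 and 156 in controls. Of the 9 corneal endothelium markers, 8 had a higher mean in the DED model than in controls, with a median log2 fold change of 2.67 and none passing. The summed level of that list, which holds the junction gene Tjp1, was 7293 to 13437 with the eye drop, 7578 to 12792 with the intravenous route, 7505 to 11667 in the DED model and 7207 to 7599 in controls. The 9 vessel markers summed to 124 to 218 normalized counts with the eye drop, 149 to 231 with the intravenous route, 289 to 334 in the DED model and 47.5 to 103 in controls; Cdh5, the cadherin of vessel endothelium, was at 0 in intravenous 3 and control 1. All 9 vessel markers had a higher mean in the DED model than in controls, with a median log2 fold change of 1.91, and 1 passed. All 15 retina markers, all 8 iris and melanocyte markers and 11 of 12 keratocyte and stroma markers also had a higher mean there. Of the iris and melanocyte markers 2 passed, and 0.736% of all genes passed higher in this comparison. Of 13 lens markers tested, 11 had a lower mean. In DED 1, 2 and 3 the retina markers summed to 5678, 3220 and 26108 normalized counts. The iris and melanocyte markers summed to 1522.5, 610 and 1700 in these libraries. The part of these cell types in the Jam2 and Jam3 levels was not tested.

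**Figure D3:**
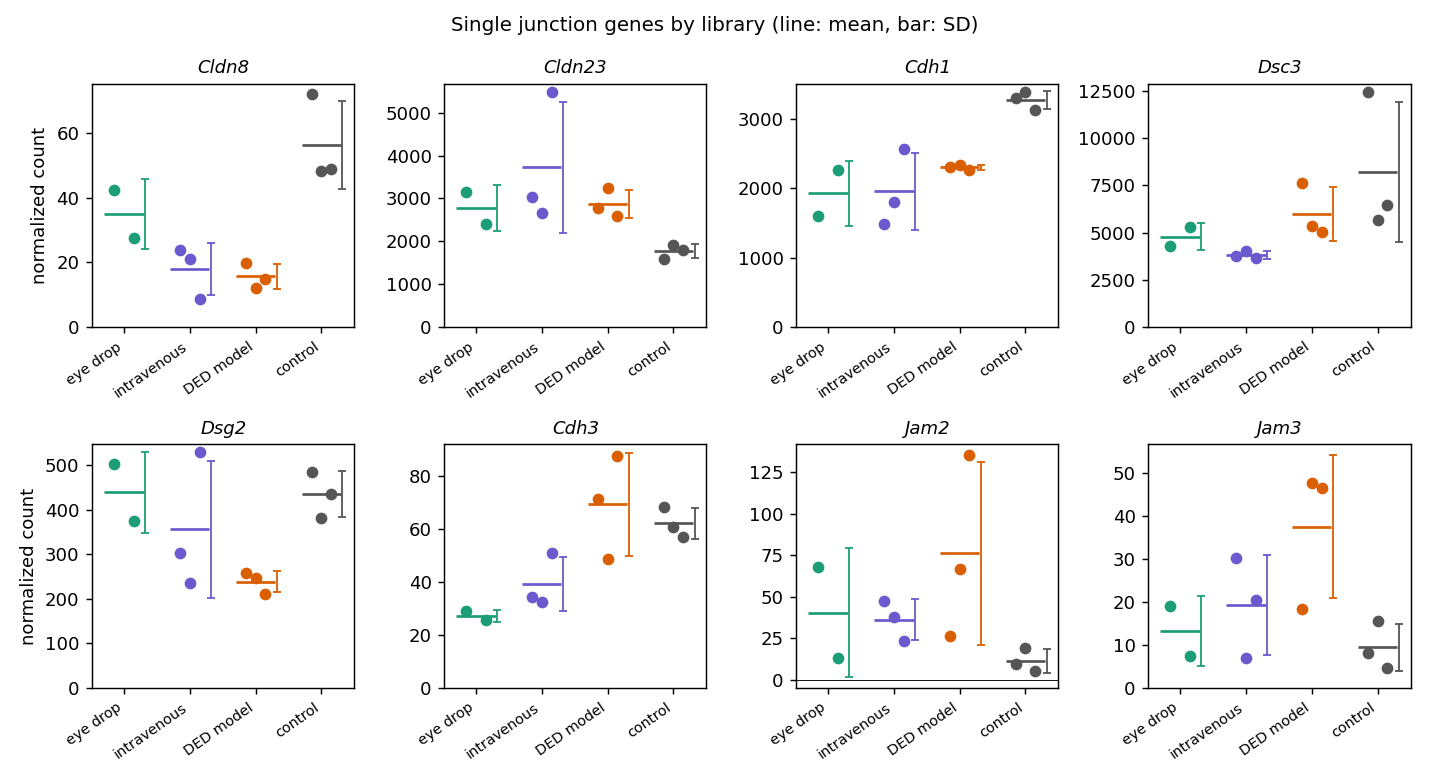
Normalized count in each library (points) of the 4 junction genes that passed in a comparison (upper row) and of 4 named after their values were seen (lower row), with the mean (line) and SD (bar) of each group; each panel has its own y axis. The DED points of Cldn8, Cdh1 and Dsg2 lie below the controls, those of Cldn23, Jam2 and Jam3 above them.

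Of the tight junction plaque genes, Tjp3, which encodes ZO-3, had the highest level per kb. Its normalized counts were 4071 and 3706 with the eye drop, 4981, 4546 and 7570.0 with the intravenous route, 3184, 4919 and 3888 in the DED model and 3564, 5116 and 3712 in controls. The groups overlapped, apart from the intravenous libraries lying above both eye drop libraries. Tjp3 overlaps Apba3 on the other strand, and no label or header says whether the counting used strand, so its counts are uncertain. Overlaps with other annotated genes, on one strand or the other, make the counts of Cldn3, Marveld2, Jam2, Jam3, Tjp1, Pard3, Ctnna1, Ctnnb1, Ctnnd1, Pkp1, Dsp and Dsg2 uncertain too. The gene for ZO-1, Tjp1, had 5515 and 3648 with the eye drop, 2500, 2012 and 7766 with the intravenous route, 4189.6, 3288 and 2807 in the DED model and 3556, 2925 and 3511 in controls. Intravenous 3 held the highest Tjp1 count of all libraries and intravenous 1 and 2 the lowest. Its interval in the DED model against controls was -0.91 to 0.97.

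Cgn, the gene for cingulin, which binds ZO-1 and actin, averaged 1338 ± 206 normalized counts with the eye drop (SD, n = 2), 1384 ± 570 with the intravenous route, 1604 ± 263 in the DED model and 1536 ± 144 in controls (SD, n = 3 each). Its relative Cgnl1 averaged 2770 ± 845 with the eye drop (SD, n = 2), 2848 ± 1804 with the intravenous route, 1751 ± 319 in the DED model and 1718 ± 60.3 in controls (SD, n = 3 each). Neither passed.

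The polarity proteins Pard3 and Pard6b work in a complex that places the tight junction at the top of the lateral membrane. Pard6b had 1344 and 970.4 normalized counts with the eye drop, 1047, 1004 and 2857 with the intravenous route, 807, 917 and 755 in the DED model and 718, 796 and 861 in controls. All libraries of both exosome groups were above all DED and control libraries. The log2 fold change was 0.47 (SE 0.36) with the eye drop against the DED model and 0.81 (SE 0.32) with the intravenous route, and neither passed (limma, adjusted p = 0.8335 and 0.2399). Without intravenous 3 the intravenous fold change was 0.32 (SE 0.16). Pard3 differed from controls by -0.22 (SE 0.23) in the DED model (limma, adjusted p = 0.6641), although its DED and control libraries did not overlap.

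Cdh1 encodes E-cadherin, the main cadherin of epithelial adherens junctions. It had 1598 and 2259 normalized counts with the eye drop, 1490, 1808 and 2561 with the intravenous route, 2302, 2337 and 2257 in the DED model and 3304, 3388 and 3126 in controls. Every library of the other groups was below every control library. It fell by 0.78 on the log2 scale with the intravenous route against controls (SE 0.20, 1.72-fold lower; limma, adjusted p = 0.02012), a call lost without intravenous 1, intravenous 2, control 1 or control 3. In the DED model the log2 fold change was -0.51 (SE 0.20), with an interval of -0.93 to -0.09 (limma, adjusted p = 0.2017), and with the eye drop against controls -0.78 (SE 0.22; limma, adjusted p = 0.2053). Without intravenous 3 the standard errors were smaller and all 3 passed: -0.99 (SE 0.16) with the intravenous route, -0.51 (SE 0.14) in the DED model and -0.78 (SE 0.16) with the eye drop.

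Cdh3 encodes P-cadherin, a cadherin of basal epithelial cells. It was far less abundant, with 28.9 and 25.7 normalized counts with the eye drop, 34.3, 32.3 and 50.8 with the intravenous route, 71.5, 48.8 and 87.6 in the DED model and 68.3, 60.9 and 57.1 in controls. Both eye drop libraries were below all others. The eye drop differed from the DED model by -1.28 (SE 0.33) on the log2 scale, with an interval of -1.97 to -0.58, and did not pass (limma, adjusted p = 0.2688), nor did the intravenous route at -0.80 (SE 0.30; limma, adjusted p = 0.197).

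Of the catenins, β-catenin, encoded by Ctnnb1 and also the effector of Wnt signalling, had the highest level per kb. Its normalized counts were 8132 and 7994 with the eye drop, 6894, 6650.3 and 6434 with the intravenous route, 8391, 7208 and 7042 in the DED model and 6077, 6441 and 7001 in controls. The DED libraries were above the controls and the intravenous libraries below the DED libraries without overlap, but the log2 fold changes were 0.21 (SE 0.16) and -0.18 (SE 0.16), and neither passed (limma, adjusted p = 0.5028 and 0.6458). Ctnna1, which encodes the α-catenin that links the complex to actin, ranged from 5458 to 9247 normalized counts over the 11 libraries. Ctnnd1, for p120-catenin, which keeps cadherins at the membrane, averaged 459 ± 108 with the eye drop (SD, n = 2), 623 ± 92.6 with the intravenous route, 553 ± 20.01 in the DED model and 619 ± 65.7 in controls (SD, n = 3 each). Neither passed.

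Jup, for plakoglobin, which binds both desmosomal and classical cadherins, had the highest level per kb of all 33 genes. It had 14982 and 15028 normalized counts with the eye drop, 11871, 13308 and 20223 with the intravenous route, 13706, 16905 and 15629 in the DED model and 11867, 19054 and 15839 in controls. The groups overlapped, and the interval was -0.55 to 0.48 on the log2 scale with the eye drop against the DED model and -0.45 to 0.46 in the DED model against controls.

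The plakophilins strengthen the desmosomal plaque. Pkp1 and Pkp3 made up nearly all of their summed level, and Pkp2 at most 0.675% in any library. Pkp3 had 5702 and 5879 normalized counts with the eye drop, 6373, 6722 and 9208 with the intravenous route, 7189.8, 8832 and 7861 in the DED model and 5019.9, 7205 and 6189 in controls. The eye drop libraries were below all DED libraries, with a log2 fold change of -0.45 (SE 0.21; limma, adjusted p = 0.7041). As a share per kb, Pkp3 took 48.0% ± 0.508 with the eye drop (SD, n = 2), 57.4% ± 4.79 with the intravenous route, 57.9% ± 3.78 in the DED model and 47.8% ± 3.31 in controls (SD, n = 3 each), and Pkp1 nearly all the rest. These shares were not tested.

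**Figure D4:**
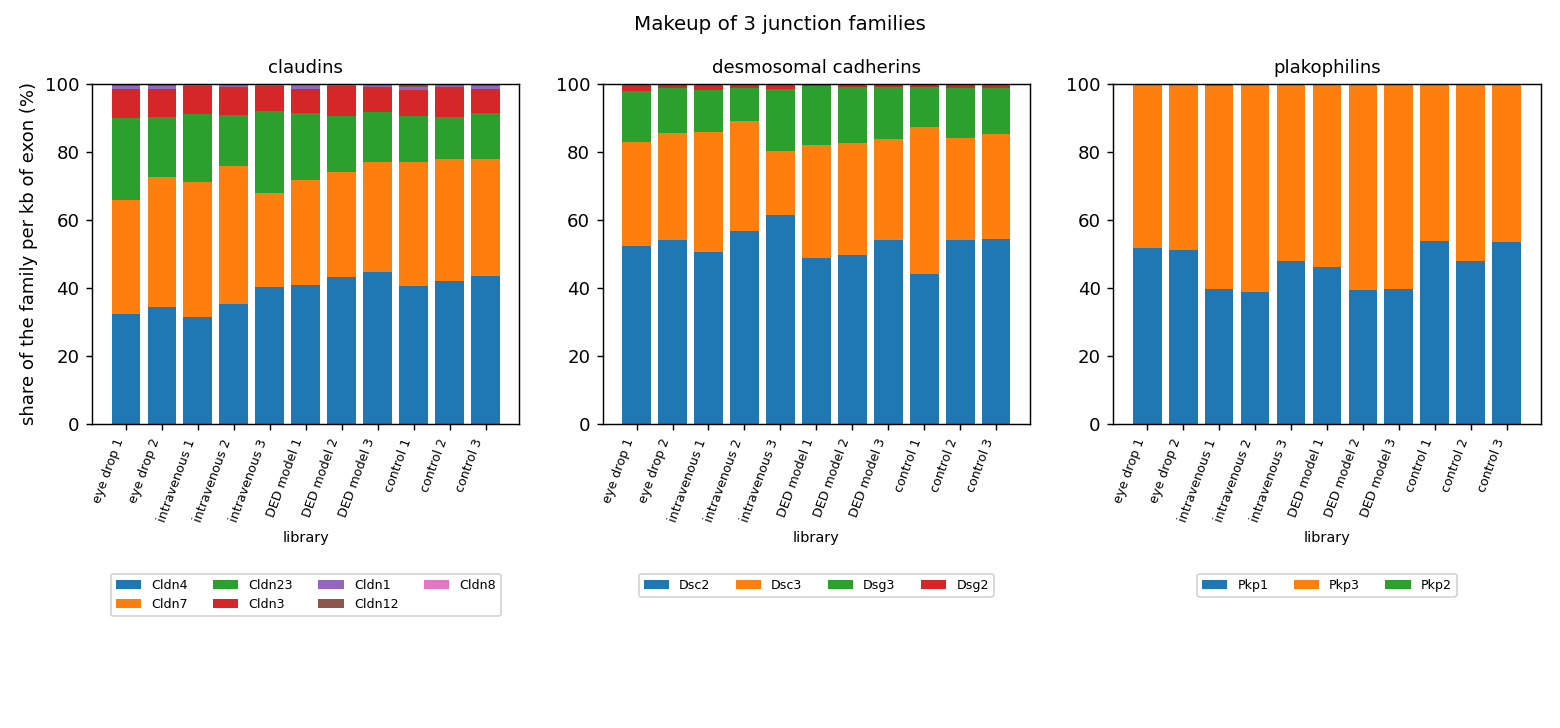
Share of each gene (colours) in the summed level per kb of exon of its family, in percent (y axis), by library (x axis), for claudins, desmosomal cadherins and plakophilins. Cldn4 takes 31.5% to 40.3% in the eye drop and intravenous bars and 40.6% to 44.7% in the DED and control bars; Pkp3 takes 53.5% to 60.3% in the DED bars and 45.6% to 51.6% in the control bars.

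Dsp encodes desmoplakin, the link to keratin filaments, and had the highest counts of the set without regard to length. It had 22189.5 and 21773 normalized counts with the eye drop, 15458, 15199 and 33519 with the intravenous route, 22713, 24119.5 and 22519 in the DED model and 23557, 30072 and 26464 in controls. Intravenous 1 and 2 were the lowest libraries and intravenous 3 the highest. No comparison passed on all libraries.

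Of the desmosomal cadherins, Dsc2 had the highest level per kb, and Dsc3 is a desmocollin of stratified epithelia that is strongest in their lower layers. Dsc3 had 4287 and 5289 normalized counts with the eye drop, 3739, 4038 and 3630 with the intravenous route, 7647, 5338 and 5028 in the DED model and 12439.9, 5692 and 6452 in controls. The intravenous libraries were below all DED and control libraries, and control 1 was well above the other controls. Dsc3 fell by 1.02 on the log2 scale with the intravenous route against controls (SE 0.25, 2.03-fold lower; limma, adjusted p = 0.01821), and the call was lost without control 1 or intravenous 1. Against the DED model the intravenous fold change was -0.64 (SE 0.25), which did not pass (limma, adjusted p = 0.2273).

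Dsc2 had 6327 and 7891 normalized counts with the eye drop, 4677, 6098 and 10363 with the intravenous route, 9788, 6955 and 7948 in the DED model and 11094, 8971 and 9919.7 in controls. The eye drop libraries were below all controls, and the other groups overlapped; no comparison passed. Dsg2, a desmoglein that stratified epithelia hold mainly in the basal layer, had 503 and 375 with the eye drop, 302, 235 and 530 with the intravenous route, 257, 247 and 211 in the DED model and 485, 382 and 436 in controls. The DED libraries were below every control and every eye drop library. The log2 fold change was -0.86 (SE 0.24) in the DED model against controls and 0.87 (SE 0.27) with the eye drop against the DED model, and neither passed (limma, adjusted p = 0.09185 and 0.4297). These comparisons share the DED libraries. Dsg3, the desmoglein targeted by autoantibodies in pemphigus vulgaris, averaged 2782 ± 115 with the eye drop (SD, n = 2), 2626 ± 1706 with the intravenous route, 4032 ± 1065 in the DED model and 3925 ± 462 in controls (SD, n = 3 each).

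Over the set, libraries did not overlap, with the first group higher, for 5 junction genes with the eye drop against the DED model (15.2%, against 13.8% of all genes), and with it lower for 6 (18.2%, against 13.7%). With the intravenous route against the DED model they were 2 higher (6.06%, against 8.12%) and 2 lower (6.06%, against 8.88%). In the DED model against controls they were 4 higher (12.1%, against 13.3%) and 4 lower (12.1%, against 12.5%). These shares were near those of all genes. With the eye drop against controls they were 9 higher (27.3%, against 17.5%) and 10 lower (30.3%, against 17.4%), and with the intravenous route against controls 5 higher (15.2%, against 15.1%) and 4 lower (12.1%, against 13.2%). Between the intravenous route and the eye drop they were 8 higher (24.2%, against 12.4%) and 4 lower (12.1%, against 12.7%).

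Intravenous 3 was the highest of its group for 24 of 33 junction genes (72.7%), against 38.1% of all genes tested, and over 1.5-fold above the mean of intravenous 1 and 2 for 21 (63.6%, against 24.0%). Among genes with a mean of at least 100, it was highest for 23 of 28 junction genes (82.1%) and for 45.0% of 9174 genes. The largest differences were 3.46-fold for Tjp1, 2.80-fold for Dsg3, 2.78-fold for Pard6b and 2.73-fold for Cgnl1. Cldn7, Ctnnb1 and Dsc3 were at 0.944, 0.950 and 0.934 times the mean of the other libraries. Cldn8 was at 0.415, Jam2 at 0.558, Pkp2 at 0.729 and Cldn1 at 0.793 times that mean, each with its lowest intravenous count in intravenous 3.

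Exon length moved with this difference. Over the 33 junction genes the rank correlation of length with it was 0.49, and over those of the 9174 genes with a length in the annotation 0.53; these are across genes of the same libraries and carry no p. The median log2 difference of intravenous 3 from the others was -0.35 in the shortest tertile of the genes with a length (up to 2365 bp), 0.04 in the middle tertile and 0.41 in the longest tertile (from 4278 bp), which held 12 junction genes. The part of length in any result here was not tested.

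**Figure D5:**
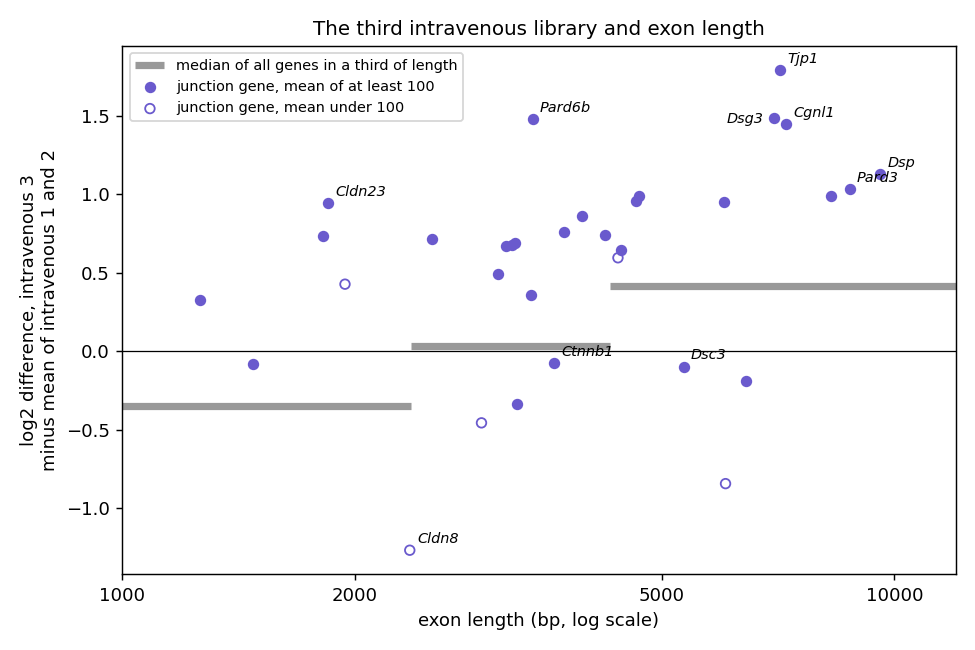
Log2 difference of intravenous 3 from the mean of intravenous 1 and 2 (y axis) against exon length in bp (x axis, log scale) for the 33 junction genes, filled where the mean normalized count is at least 100; bars give the median of all such genes in each tertile by length. Tjp1, Dsg3, Cgnl1 and Pard6b lie above 1.4, while Dsc3 and Ctnnb1 lie near 0.

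Without intravenous 3, 4 junction genes fell with the intravenous route against the DED model: Dsg3 by 1.26 (SE 0.18), Dsc2 by 0.61 (SE 0.17), Dsp by 0.59 (SE 0.14) and Cgn by 0.59 (SE 0.16) on the log2 scale. The limma adjusted p-values were 0.001216, 0.04343, 0.01566 and 0.03713, and 7.59% of all genes passed there (4.52% higher and 3.08% lower). Against controls 12 junction genes then passed, beside 22.9% of all genes (11.7% higher and 11.2% lower). Cldn23 was higher, and Cldn8, Cgn, Pard3, Cdh1, Cdh3, Pkp1, Dsp, Dsg2, Dsg3, Dsc2 and Dsc3 were lower, with Dsg3 at -1.25 (SE 0.18) and Dsp at -0.79 (SE 0.14). Against the eye drop, Tjp1, Pard3 and Dsg3 were lower (2.98% of all genes passed, with 2.01% higher and 0.977% lower). In the DED model against controls Cldn8, Cdh1 and Dsg2 were lower and Cldn23 higher (5.77% of all genes, with 2.93% higher and 2.85% lower). With the eye drop against controls Cdh1 was lower and Cldn23 higher (1.77%, with 0.887% higher and 0.883% lower). None passed with the eye drop against the DED model (0.382%, with 0.25% higher and 0.132% lower).

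Length moved with these calls too. All 4 genes lower against the DED model lie in the longest tertile, where 9.11% of genes were lower without intravenous 3, against 1.71% in the shortest tertile. Against controls 9 of the 12 junction genes of the longest tertile were lower, as were 44.8% of all genes in it, against 2.20% in the shortest tertile. With all libraries, Cdh1 (4430 bp) and Dsc3 (5333 bp) were among the 17.0% of the longest tertile that were lower with the intravenous route than in controls. Cldn23 (1848 bp) was among the 27.0% of the shortest tertile that were higher. Cldn8 (2356 bp), which was lower there too, had a mean under 100 and was not among the genes split by length. Its length lies just under the upper bound of the shortest tertile (2365 bp). In that tertile 0.987% of genes were lower, and in the middle tertile 5.1%, but neither holds genes with a mean under 100. The DED model against controls had median log2 fold changes of 0.21, -0.05 and -0.27 from the shortest to the longest tertile.

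Beside the 33 genes, 7 related lists were counted. In the DED model against controls none passed among 29 other tight junction genes (median log2 fold change 0.03), 19 other adherens junction genes (-0.06), 11 other desmosome genes (0.11), 10 gap junction genes (-0.06), 19 junction regulators and epithelial transcription factors (-0.02) and 9 genes of epithelial-mesenchymal transition (1.20). None of these passed with either exosome route against the DED model. In the last list 7 genes had a higher mean in the DED model than in controls and 2 a lower one. Snai1, Zeb1, Zeb2 and Foxc2 had at most 24.5 normalized counts in any DED or control library. Cdh2, also a corneal endothelium marker, had 6.845, 55.45 and 96.38 in DED 1, 2 and 3. Twist1 had 6.845, 55.45 and 48.19 in these libraries.

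Of 13 hemidesmosome genes, which anchor basal epithelial cells to the basement membrane, 5 fell in the DED model against controls (1.25% of all genes passed, 0.514% lower) and none rose, with a median log2 fold change of -0.81. Itgb4, for the β4 integrin, fell by 0.89 on the log2 scale (SE 0.18; limma, adjusted p = 0.02041), with 859, 1228 and 985 normalized counts in the DED model and 2143, 1644 and 1891 in controls. Dst, for a plakin that ties the integrin to keratin, fell by 1.04 (SE 0.21), with 1511, 1630.1 and 1373 in the DED model and 4539, 2251 and 2851 in controls. The collagen gene Col17a1 fell by 0.82 (SE 0.18), with 6196, 7239 and 6599.5 in the DED model and 13947, 9895 and 11813 in controls. For the laminin gene Lamb3 the fall was 1.00 (SE 0.22), with 167, 199 and 219 in the DED model and 459.7, 340.1 and 374 in controls. None of the 13 passed with the eye drop or the intravenous route against the DED model. With the intravenous route against controls 7 were lower, beside 4.68% of all genes. All 7 lie in the longest tertile by exon length, where 17.0% of genes were lower.

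These 4 named genes lie in the longest tertile by exon length, where 2.01% of genes were lower in the DED model, against 0.296% in the shortest tertile; the part of length was not tested. The count of 5 was 0 without control 1, control 3 or DED 3, and 1 without DED 1 or DED 2. Without intravenous 3, 8 of the list fell and 1 rose. Of the 12 junction genes of the longest tertile none fell in the DED model on all libraries, which is near the share of 2.01%. Without intravenous 3, 2 of the 12 fell, Cdh1 and Dsg2, beside 12.5% of all genes in that tertile.

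With the intravenous route against controls, 11.3% of all genes passed (6.66% higher and 4.68% lower). The related lists other than hemidesmosomes held 29, 19, 11, 10, 19 and 9 tested genes, in the order given above. Of these genes 11 passed, 4 higher and 7 lower, a share near that of all genes. The 11 were named after their values were seen. Of the adherens junction genes Nectin1, an adhesion molecule that recruits cadherins, was at -0.98 (SE 0.23) on the log2 scale, Vcl, for vinculin, at -0.77 (SE 0.20) and Lima1, an actin-binding protein, at -0.55 (SE 0.15). Of the tight junction genes Crb3, a polarity protein of the apical membrane, was at 0.95 (SE 0.17), Ybx3, a transcription factor that binds ZO-1, at 0.71 (SE 0.17) and Amotl1, an angiomotin, at -0.77 (SE 0.21). Prss8, a protease of barrier epithelia, was at 1.19 (SE 0.21), and Trp63, the transcription factor of basal epithelial cells, at -0.84 (SE 0.19). Gja1, for the gap junction protein connexin 43, was at -0.84 (SE 0.24). Vim, for the intermediate filament of mesenchymal cells, was at 1.75 (SE 0.35), and Fn1, for fibronectin, at -0.97 (SE 0.21). Of the 11 leave-one-out fits, Lima1 passed in 5, Vcl and Amotl1 in 7, and Gja1 and Trp63 in 8. Nectin1, Fn1 and Ybx3 passed in 9, Vim in 10, and Crb3 and Prss8 in 11. The calls of Crb3, Prss8 and Ybx3 were lost without scaling, and that of Ybx3 also with scaling by library totals.

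Summed markers of other tissues varied between groups or between the libraries of a group. The summed conjunctiva markers were 58043 to 63123 normalized counts with the eye drop, 84209 to 105090 with the intravenous route, 43441 to 56122 in the DED model and 41642 to 54446 in controls. Of the 11 markers in the table, 1 to 3 were at 0 in intravenous libraries and 1 to 4 in controls. With the intravenous route against controls 4 of the 8 tested passed higher, beside 6.66% of all genes. Against the DED model 3 of the 8 passed higher, beside 0.962% of all genes, while 4 of the 8 had a lower mean (median log2 fold change 0.22). Krt13 held most of the sum, with 69149, 82716 and 75797 normalized counts in intravenous 1, 2 and 3. Fcgbp had 278, 274 and 755 there and 361, 613 and 400 in DED 1, 2 and 3. The 12 muscle markers summed to 128 and 204 normalized counts with the eye drop, 8392, 4464 and 252 with the intravenous route, 157 to 1190 in the DED model and 272 to 487 in controls. All 12 had a higher mean with the intravenous route than in the DED model (median log2 fold change 3.73, none passing) and than in controls (3.98, with 1 passing), and they were high in intravenous 1 and 2, the libraries behind the results without intravenous 3. The 14 lens markers summed to 2292 and 27809 with the eye drop, 76.9 to 3073 with the intravenous route, 177 to 409 in the DED model and 133 to 3047 in controls. The part of these tissues in the results of either exosome group was not tested.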

How the data were processed

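The authors deposited a table of log2 values, 1 column per sample; per the submitters' processing notes the genome build was mm9, while for the aligner, counting tool and annotation nothing is given in the sources used here. Undoing log2(x + 1) gave whole numbers (within 0.01) for 99.9748% of the values in 11 columns, so the deposited unit is log2(count + 1), not normalized between samples. One eye drop column was the average of the others in all 28548 lines (largest gap 5e-09) and was left out. Counts were recovered by rounding; 19 lines (non-whole values or names read as dates) were dropped, at most 0.049% of a library. Counts were divided by median-of-ratios size factors, a gene was kept where 3 or more samples reached a normalized count of 1, and log2(normalized count + 1) was fitted with limma 3.58.1 (R 4.3.3), 4 group means, trend and robust estimation (residual degrees of freedom 7, prior degrees of freedom 9.59 at the median). Fold changes are on that scale, which understates those of low genes. Tests are two-sided. The plan allowed for counts or log2 values; since the unit was log2, limma was used. The fit was checked on simulated data. The members, lists and tests were chosen with earlier results of these data known. Values per sample are given for members that passed and for the highest per kb in each role. Exon lengths and positions are from GENCODE M21 on GRCm38, a later build than the files'. Reads carry no molecular identifiers. Alternatives tried were other scalings, pseudocounts and filters, limma without trend and robust estimation, voom weights, fits of the compared groups alone, the averaged eye drop column kept, a replicate block, each library left out in turn and sets of libraries left out. Markers of neighbouring tissues were summed per library. Of related lists, genes that passed in the DED model against controls or in an exosome group against the DED model were named, up to 4 per list by smallest p. One gene of the hemidesmosome list is not reported here by name.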

Additional observations from a re-analysis of the deposited data

How the results depend on the processing

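Counts of calls depended on single libraries and on the scaling. The median log2 fold change of the junction genes stayed within the spread between libraries in all 6 comparisons, except without scaling, where it was -0.62 with the intravenous route against the DED model, -0.66 against controls and -0.70 against the eye drop, with medians of all genes at -0.58, -0.55 and -0.61; Ctnnb1 with the intravenous route against controls then reversed to -0.63. Leaving out 1 library at a time, the junction genes that passed were 0 to 4 both for the DED model against controls and the intravenous route against the DED model, 0 to 12 with the intravenous route against controls, 0 to 2 with the eye drop against controls, 0 to 3 between the routes and 0 to 11 in the test of any difference. The hemidesmosome genes that passed in either direction were 0 to 9 in the DED model and 2 to 9 with the intravenous route, both against controls. Over all genes the counts were 51 to 1223 for the DED model against controls, 4 to 81 for the eye drop against the DED model, 66 to 1609 for the intravenous route against the DED model, 0 to 375 for the eye drop against controls, 250 to 4844 with the intravenous route against controls, 0 to 632 between the routes and 210 to 3749 in the test of any difference. The highest of each count came without intravenous 3.

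In the other alternatives, counts are given in the order: DED model against controls, eye drop against the DED model, intravenous against the DED model, eye drop against controls, intravenous against controls, between the routes, any difference; those not named stayed within 1.5 times. Without scaling the junction genes were 0 in the DED model, 13 with the intravenous route against the DED model, 14 against controls, 1 between the routes and 14 in any difference; hemidesmosome genes were 0 in the DED model and 11 intravenously; all genes were 3739 intravenously against the DED model, 5 with the eye drop and 6517 intravenously against controls, 1404 between the routes and 5137 in any difference. The split of calls moved too: with the intravenous route against controls 1413 of 2405 genes were higher, against 269 of 6517 without scaling, 649 of 4579 by library totals and 1089 of 2327 at the 75th percentile, and against the DED model 204 of 308, against 90 of 3739, 131 of 586 and 136 of 385. Of the calls in the DED model 156 of 265 were higher, against 132 of 178, 137 of 333 and 254 of 336. Scaled by library totals, junction genes were 9 intravenously against controls and 5 in any difference, and all genes 586 intravenously against the DED model, 20 and 4579 for eye drop and intravenous against controls, and 2101 in any difference. With 75th percentile scaling, junction genes were 0 in the DED model and 3 in any difference, hemidesmosome genes 3 in the DED model, and all genes 18 with the eye drop against controls. That last count was 22 without the filter and 9 with voom weights. Without trend and robust estimation, junction genes were 0 in the DED model, 0 intravenously against controls and 0 in any difference, hemidesmosome genes 0 and 2, and all genes 60, 6, 65, 370 (intravenous against controls), 1 and 33. Fitting only the groups compared gave 4 junction genes in the DED model and 1 with the eye drop against controls, 8 hemidesmosome genes in the DED model, and 662, 72, 207, 1262 and 2 genes (all but the eye drop against the DED model and any difference). With the third eye drop column, junction genes were 2 in the DED model, 1 with the eye drop against the DED model, 2 against controls and 5 in any difference, and all genes 594, 115, 605, 309, 7 (between the routes) and 2246. Without the 3 libraries highest in lens, retina and muscle markers, junction genes were 0 in the DED model, 0 intravenously against controls and 0 in any difference, hemidesmosome genes 0 and 2, and all genes 63, 0, 46, 0, 188 and 84 (any difference). Without control 1 and intravenous 3, chosen after seeing the data, junction genes were 3, 1, 6, 11 (intravenous against controls), 5 and 11, and all genes 416, 113, 2002, 69, 986 (between the routes) and 2762. The causes were not tested. Fitting fewer groups or libraries also leaves fewer degrees of freedom.

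Nothing at hand says whether the replicate numbers in the labels pair the samples. The correlation of deviations from the group means ran from -0.15 to 0.24 for same-numbered libraries. For differently numbered libraries it ran from -0.287 to 0.273. The deviations of the 2 eye drop libraries mirror each other, and these values cannot show whether samples were paired. With a replicate block, 1 junction gene passed in the DED model against controls and 4 with the intravenous route against controls, as without it, and all genes were 212 in the DED model against controls and 26 with the eye drop against the DED model; no junction gene's call changed in number.

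With 2 or 3 libraries a group, differences under about 2-fold often lay within the intervals, and genes at low counts (Cldn8, Jam2, Jam3, Cdh3, Pkp2) rest on few reads.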
